A study of Mesocricetus auratus with 6 samples.

Results

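The Kruppel-like factors described here are 10 transcription factor genes, Klf2, Klf3, Klf4, Klf5, Klf6, Klf7, Klf9, Klf10, Klf13 and Klf15, measured in uterine RNA of pregnant golden hamsters. They were taken as every probe set (a group of short probes read out as 1 value) to which the platform annotation gives exactly 1 gene symbol, equal to 1 of these names. That gave 27 of 22626 tested probe sets, and 10 of 12393 gene symbols. RNA of day 5 of pregnancy was hybridised to mouse arrays of Affymetrix. Implantation sites, where an embryo has attached, had 3 arrays, and so had interimplantation sites, the stretches of uterus between them that hold no embryo. Both groups came from untreated pregnant animals, and per the series' design text the RNA was isolated from 3 different animals. The sources used here do not give which array came from which animal, nor whether the embryo was left in the tissue. All 10 symbols are also symbols of the hamster RefSeq annotation BCM_Maur_2.0.

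Kruppel-like factors bind GC-rich and CACCC sequences through zinc fingers at the end of the protein, a part that is much alike across the family, while the rest of the protein differs and decides whether a target is activated or repressed. KLF9, KLF10 and KLF13 recruit the corepressor SIN3A, KLF3 recruits the corepressor CtBP, and KLF2, KLF4, KLF5, KLF6 and KLF7 act largely as activators. In the mouse uterus KLF9 is known as a partner of the progesterone receptor and KLF5 is needed in the luminal epithelium for implantation. In that organ KLF4 and KLF15 are known for the control of epithelial proliferation by steroid hormones.

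Values are log2 signals after robust multi-array averaging (RMA), which sets the arrays to a common distribution, so a difference is relative to what most probe sets did. Differences are implantation minus interimplantation, with the standard error (SE) of a limma fit across all probe sets, and the threshold for a call was an adjusted p of 0.05 (Benjamini-Hochberg over all 22626). The probes match mouse sequence, so mismatches with hamster RNA can dim a probe set, and levels of different probe sets or genes were not ranked. The 10 genes were selected on their family and on differences between the sites already seen on these 6 arrays. Their differences and calls are therefore given as a description of these arrays and not as a test.

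Klf9 was lower at the implantation site by its brightest probe set, 1428288_at, which differed more than any other probe set of the 10 genes. The signal was 6.82, 6.82 and 6.77 on the implantation arrays, against 7.58, 7.35 and 7.54 on the interimplantation arrays. The implantation arrays lay close together and all below the lowest interimplantation array. The difference was −0.69 (SE 0.09), or 1.61-fold lower, between means of 6.80 ± 0.03 at implantation sites and 7.49 ± 0.12 at interimplantation sites (SD, n = 3 each). Only 0.650% of all probe sets had a larger absolute difference. In bulk tissue, fewer cells that express a gene and less RNA per cell cannot be told apart.

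The other 6 Klf9 probe sets differed less, and most of them hardly at all. Probe set 1456341_a_at had 3.07, 3.00 and 3.07 on the implantation arrays, against 3.94, 3.26 and 3.27 on the interimplantation arrays. The groups did not overlap, but interimplantation array 1 stood well above the other two of its group. The difference was −0.45 (SE 0.15), and −0.22 without interimplantation array 1. Probe set 1428289_at was at 6.02, 6.04 and 6.05 on the implantation arrays, against 6.087, 5.9997 and 6.040 on the interimplantation arrays. Those arrays overlapped fully, and the difference was −0.0044 (SE 0.08, 95% interval −0.17 to 0.17). The 4 remaining probe sets ran from −0.11 for 1452723_at and −0.079 for 1436763_a_at to −0.073 for 1436952_at and 0.03 for 1422264_s_at, each with overlapping groups. Of all 7, 6 were negative, their median was −0.079 and their mean −0.20, so the size of the Klf9 difference depends on which probe set is read. The platform annotation gives the same source sequence to 3 of them, 1428288_at, 1428289_at and 1452723_at, with differences of −0.69, −0.0044 and −0.11. Over the 6 arrays, which both groups and the arrays' own deviations shape, the signal of 1428288_at correlated with that of 1428289_at at r = 0.25, with 1452723_at at r = 0.57 and with 1456341_a_at at r = 0.78. Probe sets 1422264_s_at and 1436763_a_at, at mean signals of 2.28 and 2.72, lay near or below the median of 27 Bacillus control probe sets (2.68), which match bacterial genes and no gene of the hamster.

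**Figure D1:**
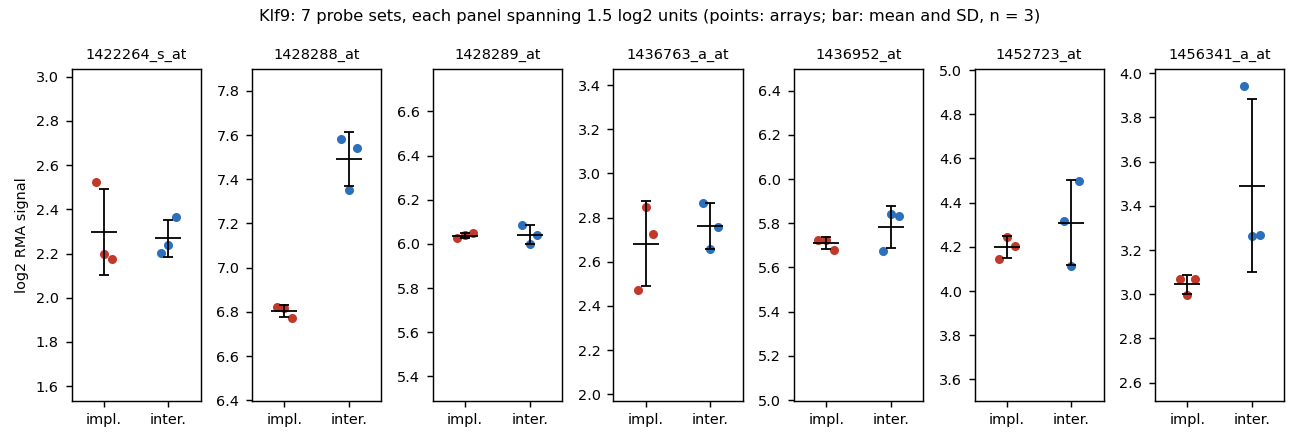
Log2 RMA signal of the 7 Klf9 probe sets, 1 panel each, with implantation arrays (red, left) and interimplantation arrays (blue, right). Points are arrays, bars are the mean and SD (n = 3), and every panel spans 1.5 log2 units. Groups are clearly apart for 1428288_at (6.80 against 7.49) and overlap in the other panels except that of 1456341_a_at. There they are apart by less, with interimplantation array 1 well above the rest of its group.

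Among the 27 probe sets, 1 was called lower (Klf9 1428288_at) and 0 were called higher, where limma called 1.05% of all probe sets lower and 1.26% higher. At an unadjusted p under 0.05, 4 of the 27 were lower and 0 higher, beside 8.35% and 5.63% of all probe sets. These 4 were 1428288_at and 1456341_a_at of Klf9, 1421604_a_at of Klf3 and 1436316_at of Klf13. The groups did not overlap in 6 probe sets, all lower at the implantation site, beside 11.7% lower and 7.62% higher of all probe sets. Because this contrast was known when the genes were chosen, nothing is read from these counts. Without interimplantation array 1, the array that stood apart from its group, 1 was still called lower and 0 higher.

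Of the 27 differences, 23 were negative (85.2%, against 56.5% of all probe sets) and 4 positive, with a median of −0.083 against −0.02 for all probe sets. Most were small: the median absolute difference was 0.093, against 0.087 for all probe sets and beside a median SE of 0.10. Without interimplantation array 1, 19 of the 27 were negative and the median was −0.074. By the brightest probe set of each gene, 7 of the 10 genes were negative. Several probe sets measure the same gene, and the genes were chosen with this contrast known, so nothing is read from the split. The split depends on scaling. Each array was then shifted to its hybridisation controls, bacterial and phage RNAs that are added to every sample. The median of all probe sets moved by 0.40 to 0.38, 3 of the 27 were negative, and their median was 0.31. In that setting the difference of 1428288_at was −0.29 and 0 of the 27 were called in either direction. Relative to the median of all probe sets, 1428288_at was lower by 0.67 in both scalings, since that shift is the same for every probe set.

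**Figure D2:**
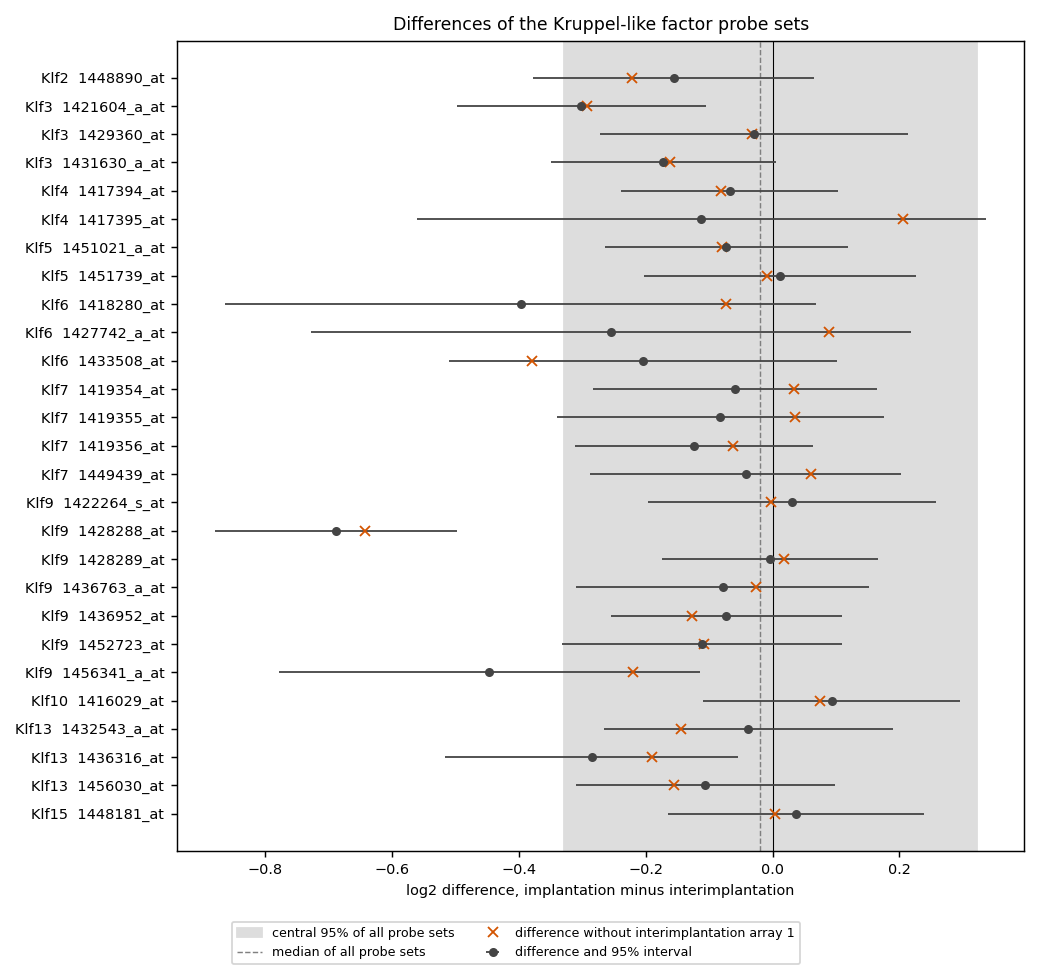
Log2 difference, implantation minus interimplantation, of the 27 probe sets (points, with 95% intervals of the limma fit), and the same without interimplantation array 1 (crosses). The grey band holds the central 95% of all 22626 probe sets, from −0.33 to 0.32. Klf9 1428288_at lies well outside the band with and without that array. The crosses of Klf4 1417395_at, Klf9 1456341_a_at and the 3 Klf6 probe sets lie away from their points.

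Klf13, like Klf9 a factor that recruits SIN3A, was lower by its brightest probe set and near 0 by the other two. Probe set 1436316_at had 6.34, 6.25 and 6.51 on the implantation arrays, against 6.84, 6.50 and 6.61 on the interimplantation arrays. Implantation array 3 reached just above interimplantation array 2, so the groups overlapped narrowly. The difference was −0.29 (SE 0.11), and −0.19 without interimplantation array 1. The probe sets 1456030_at and 1432543_a_at were at −0.11 (SE 0.09) and −0.038 (SE 0.10) with overlapping groups. Klf10, first described as an early gene induced by TGF-beta, had 1 probe set, 1416029_at, with 2.60, 2.70 and 2.73 on the implantation arrays against 2.55, 2.46 and 2.74 on the interimplantation arrays. The groups overlapped, the difference was 0.093 (SE 0.09, 95% interval −0.11 to 0.30), and the signal was that of the middle of the Bacillus controls, so it gives little measure of Klf10.

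Klf3, the CtBP-dependent repressor of the set, was lower by 2 of its 3 probe sets, in which the groups did not overlap. Of all probe sets, 11.7% were lower without overlap. Probe set 1421604_a_at had 4.10, 3.96 and 4.08 on the implantation arrays, against 4.37, 4.22 and 4.46 on the interimplantation arrays. Every implantation array lay below every interimplantation array, and the difference was −0.30 (SE 0.09), or 1.23-fold lower. Its brightest probe set, 1431630_a_at, had 7.12, 7.01 and 7.14 on the implantation arrays, against 7.28, 7.28 and 7.22 on the interimplantation arrays. Here too the groups were apart, but by less, with a difference of −0.17 (SE 0.08). Neither value moved much without interimplantation array 1 (−0.29 and −0.16). Neither probe set was called, and 6.11% and 21.0% of all probe sets had a larger absolute difference. With each array shifted to its hybridisation controls the 2 differences were 0.095 and 0.22. The third probe set, 1429360_at, was at −0.029 (SE 0.11) with overlapping groups.

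Klf6 and Klf4, which in other tissues are known as genes quickly induced by growth factors, injury and stress, varied more between the interimplantation arrays than between the sites. For Klf6, probe set 1427742_a_at had 5.95, 5.96 and 5.90 on the implantation arrays, against 6.88, 5.97 and 5.73 on the interimplantation arrays. Probe set 1418280_at had 3.95, 4.04 and 3.70 on the implantation arrays, against 4.94, 4.07 and 3.87 on the interimplantation arrays. In both, interimplantation array 1 stood far above the other 5 arrays, which overlapped. The differences of −0.25 (SE 0.22) and −0.40 (SE 0.21) were 0.088 and −0.074 without that array. The dimmer probe set 1433508_at went the other way on it, with 2.98 on interimplantation array 1 against 3.37 and 3.64 on arrays 2 and 3. Its implantation values of 3.21, 2.99 and 3.18 overlapped that group, and its difference was −0.20 (SE 0.14), or −0.38 without interimplantation array 1. For Klf4, probe set 1417395_at had 5.30, 5.04 and 5.32 on the implantation arrays, against 5.97, 4.98 and 5.05 on the interimplantation arrays. Again interimplantation array 1 alone was high, and the difference of −0.11 (SE 0.21) turned to 0.21 without it. The other Klf4 probe set, 1417394_at, which the annotation gives the same source sequence, was dim (mean signal 2.65). It was at −0.068 (SE 0.08), with groups that did not overlap, and at −0.082 without interimplantation array 1.

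The excess of interimplantation array 1 over the mean of arrays 2 and 3 was 1.03 and 0.97 for the Klf6 probe sets 1427742_a_at and 1418280_at, 0.95 for Klf4 1417395_at and 0.68 for Klf9 1456341_a_at. Of all probe sets, 99.9%, 99.8%, 99.8% and 99.7% had a lower value of this excess, and the central 95% ran from −0.40 to 0.37. For Klf9 1428288_at it was 0.14, within that range. For 25 of the 27 probe sets the highest of the 6 arrays was an interimplantation array, and for 59.1% of all probe sets. The genes were chosen with this contrast known, so nothing is read from that count or the part of array 1 in it. Interimplantation array 1 was the highest for 13 of the 27 probe sets, and for 18.99% of all probe sets. The array also stood apart from its group on the component after the leading one of a principal component analysis over all probe sets (24.2% of the variance), at −20.7 against 11.6 and 7.67. On that array the hybridisation controls averaged 7.27, the highest of the 6. The part of these in the Klf4 and Klf6 values was not tested.

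**Figure D3:**
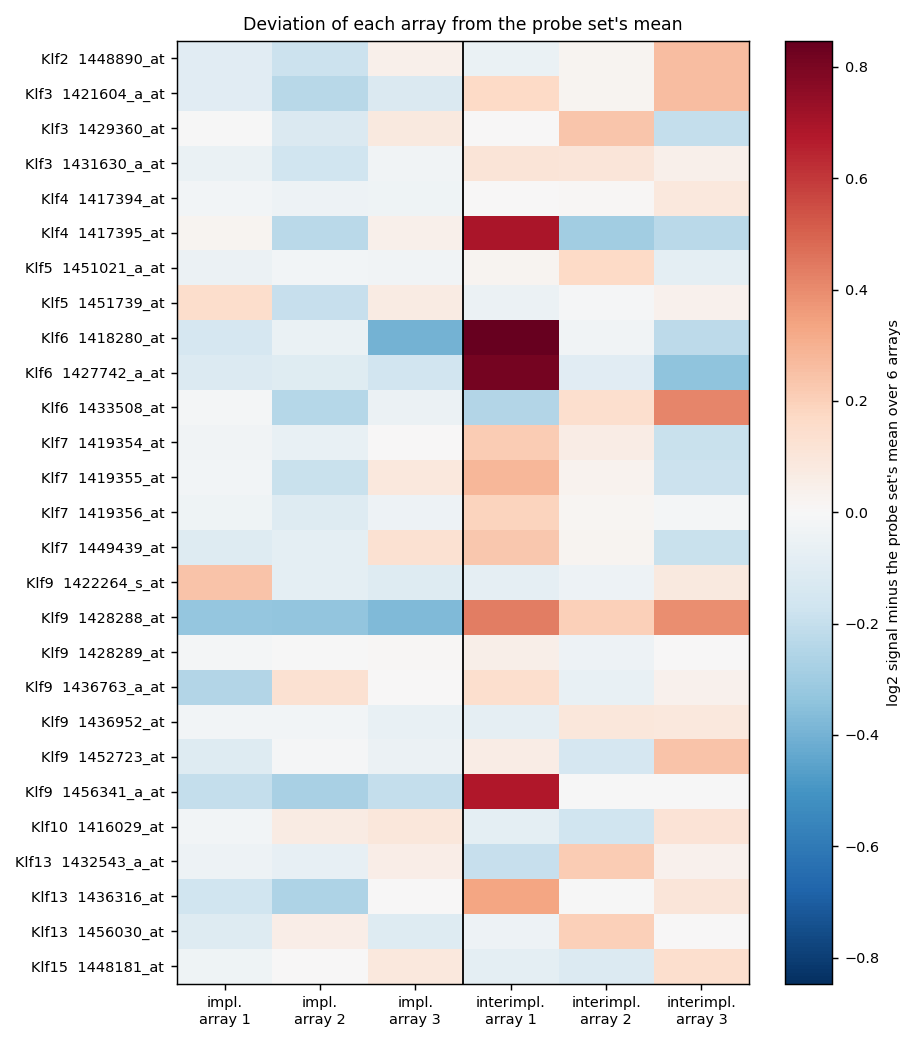
Log2 signal of each array minus the probe set's mean over the 6 arrays (colour) for the 27 probe sets (rows), with the implantation arrays left of the black line and the interimplantation arrays right of it. Klf9 1428288_at is low on all 3 implantation arrays, while Klf4 1417395_at, Klf6 1418280_at, Klf6 1427742_a_at and Klf9 1456341_a_at are high on interimplantation array 1.

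Klf7, a regulator known from neurons and fat cells, had 4 probe sets from 1 source sequence, and all were slightly negative. They ran from −0.12 (SE 0.09) for 1419356_at to −0.043 (SE 0.11) for 1449439_at, and over the 6 arrays they correlated with each other at r = 0.68 to 0.93. The brightest, 1419354_at, had 6.10, 6.06 and 6.13 on the implantation arrays, against 6.34, 6.19 and 5.94 on the interimplantation arrays, an overlap in which interimplantation arrays 1 and 3 were the extremes. Only 1419356_at had groups that did not overlap, with a highest implantation value of 4.20 and a lowest interimplantation value of 4.22. Without interimplantation array 1 the 4 differences ran from −0.062 to 0.061.

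Klf5, the factor of the luminal epithelium, gave overlapping groups by both probe sets. Probe set 1451739_at had 5.78, 5.43 and 5.70 on the implantation arrays, against 5.58, 5.62 and 5.67 on the interimplantation arrays, and differed by 0.012 (SE 0.10, 95% interval −0.20 to 0.23). Probe set 1451021_a_at was at −0.073 (SE 0.09, 95% interval −0.26 to 0.12). Klf2, which keeps endothelial cells and lymphocytes quiescent, had 4.87, 4.78 and 5.00 on the implantation arrays, against 4.91, 4.99 and 5.22 on the interimplantation arrays. The groups overlapped, and the difference was −0.16 (SE 0.10, 95% interval −0.38 to 0.07). Klf15, a factor of amino acid and glucose metabolism that responds to steroid hormones, had 4.19, 4.24 and 4.32 on the implantation arrays, against 4.15, 4.12 and 4.38 on the interimplantation arrays. These overlapped as well, with a difference of 0.037 (SE 0.09, 95% interval −0.17 to 0.24).

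Only 6 of the 27 probe sets, 1 each for Klf3, Klf6, Klf7 and Klf13 and 2 for Klf9, had a mean above the brightest Bacillus control (5.79), and 24 exceeded the median of these controls. A dim probe set may reflect mismatches with the hamster transcript, so it is no sign that a gene is silent.

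**Figure D4:**
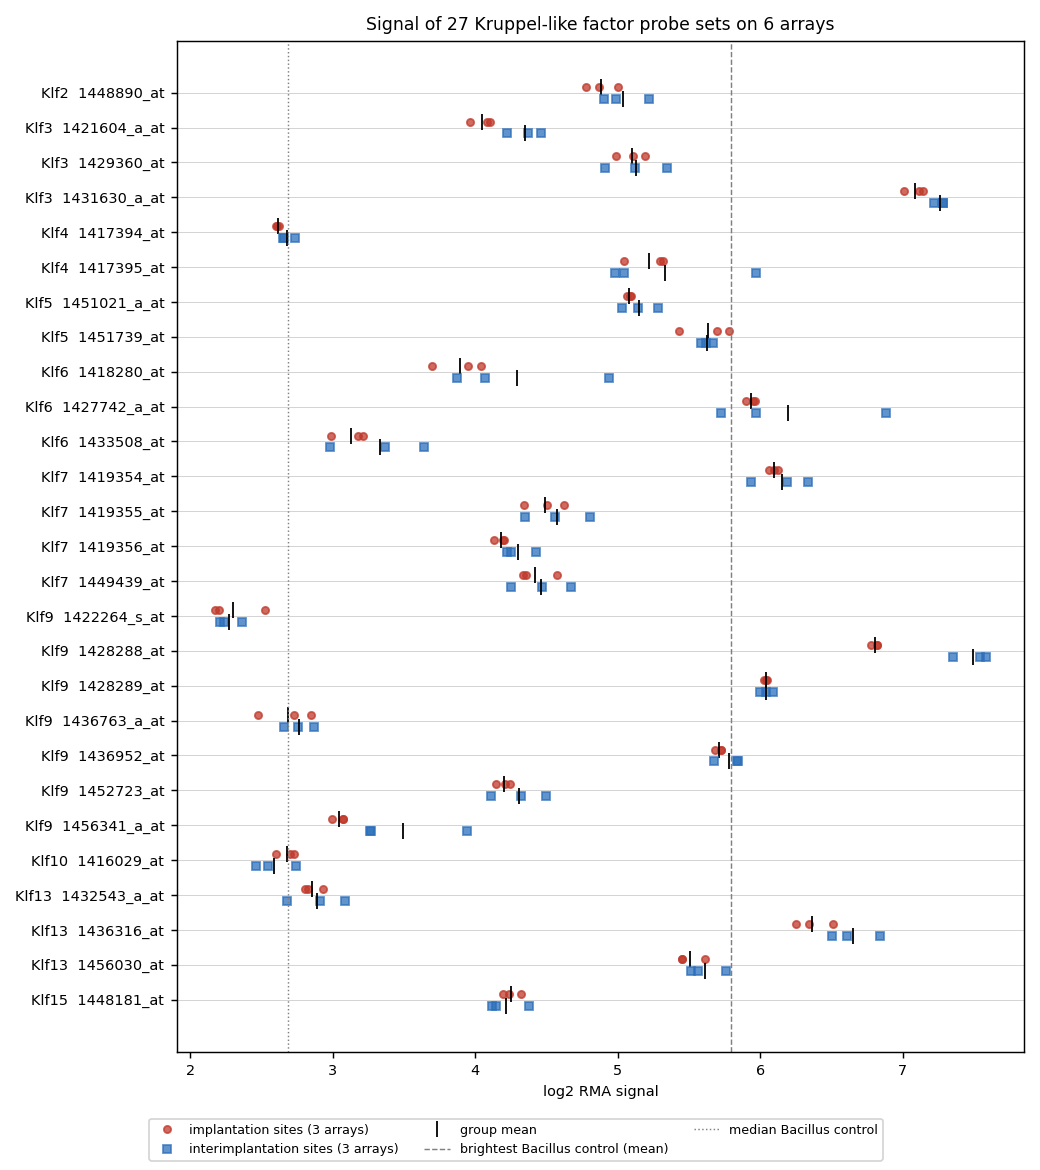
Log2 RMA signal (horizontal axis) of the 27 probe sets on the 3 implantation arrays (red circles) and 3 interimplantation arrays (blue squares), with group means as black bars. Dashed and dotted lines mark the brightest and the median Bacillus control. Klf9 1428288_at shows the widest gap between groups, and single high blue squares mark interimplantation array 1 for Klf4 and Klf6.

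Other members of the family did not pass the test. Of 17 other Kruppel-like and Sp factors (Sp factors share the zinc fingers and the GC-rich sites), 10 were measured by 13 probe sets, of which limma called 0 in either direction. Those with an unadjusted p under 0.05 numbered 0 higher and 2 lower. By the brightest probe set of each gene the median was −0.025, against −0.02 for all probe sets. Only 1 of the 10 genes, Sp7, had a mean above the brightest Bacillus control, so the lack of calls says little about the rest. Sp3, a widely expressed factor that competes with Sp1, had the lowest value at −0.37 (SE 0.12, adjusted p = 0.150 with limma). Its signal was 3.13 ± 0.10 at implantation sites and 3.50 ± 0.24 at interimplantation sites (SD, n = 3 each), without overlap. Sp5, a target of WNT signals, was at −0.22 (SE 0.08, limma adjusted p = 0.253), also without overlap. Sp1 was at 0.14, Sp7, a factor of bone formation, at 0.13, Sp4 at 0.0096 and Sp6 at −0.037. Klf17, a factor of early embryos, was at −0.12, Klf1, the erythroid member of the family, at −0.065, Klf16 at 0.041 and Klf12 at −0.012. Their limma adjusted p-values ran from 0.589 for Sp7 to 0.983 for Sp4.

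Of 19 listed partner proteins and regulators of Kruppel-like factors, 18 were measured, of which 1 fell, 0 rose and 17 did not pass. The list's median was −0.027, against −0.02 for all probe sets. Mef2a, of the MEF2 factors that act upstream of Klf2 and Klf4 in endothelial cells, fell by 0.57 (SE 0.09, limma adjusted p = 0.00515). It had 6.604 ± 0.13 at implantation sites and 7.17 ± 0.03 at interimplantation sites (SD, n = 3 each), and the groups did not overlap. It was the only one of 5 Mef2a probe sets to be called, and they ran from −0.57 to 0.024. Scaled to the hybridisation controls it was at −0.17 and not called (adjusted p = 0.450). Map2k5, the kinase above the MAP kinase that activates MEF2 factors, was at −0.30 (SE 0.08) and did not pass (limma adjusted p = 0.0888). Of 5 genes that KLF2 activates in endothelial cells or lymphocytes, 4 were measured and 0 were called in either direction, also at an unadjusted p under 0.05. Of these 4, 0 had a mean above the brightest Bacillus control, so the lack of calls says little about their change. S1pr1, the receptor by which lymphocytes leave tissues, was at −0.16 and the anticoagulant receptor Thbd at 0.094 (limma adjusted p = 0.400 and 0.721).

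Of 6 steroid receptors 4 were measured, and limma called 0 in either direction, also at an unadjusted p under 0.05. Only 1 of the 4, neither Pgr nor Esr1, had a mean above the brightest Bacillus control. The progesterone receptor Pgr was at 0.32 (SE 0.16, limma adjusted p = 0.395), with 4.62 ± 0.14 at implantation sites and 4.30 ± 0.39 at interimplantation sites (SD, n = 3 each). The groups overlapped. Without interimplantation array 1 the Pgr difference was 0.55 and was called (limma adjusted p = 0.0128). Under the control scaling it was 0.72 and was called too (limma adjusted p = 0.0320). That scaling raises every difference by the same amount, so relative to the other probe sets Pgr did not change with it. Esr1, the estrogen receptor alpha, was at 0.041 (limma adjusted p = 0.884).

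Some markers of the uterine epithelium and smooth muscle fell on the same arrays. Of 21 measured epithelial markers 4 fell, 0 rose and 17 did not pass, with a median of −0.17 and 20 of the 21 negative. All probe sets had a median of −0.02, and 56.5% of them were negative. Only 7 of the 21 markers had a mean above the brightest Bacillus control. The common markers Epcam (−0.013) and Krt19 (0.00068) were near 0. The mean level of the 21 ran from 4.99 to 5.09 on the implantation arrays and from 5.32 to 5.39 on the interimplantation arrays. The surface glycoprotein Cd24a (−1.99), the tight junction gene Cldn7 (−0.78), the transcription factor Sox17 (−0.53) and the ligand Wnt7b (−0.50) were those called (limma adjusted p = 6.74e-07, 0.00868, 0.0467 and 0.0112). Cd24a had a mean below the brightest Bacillus control. Other probe sets of Cd24a and Sox17 ran up to −0.13 and 0.07. Sox17 kept its call only when implantation array 2 was the one left out, and otherwise had an adjusted p of 0.0641 to 0.174. Wnt7b was not called without implantation array 1 (adjusted p = 0.0768), and under the control scaling neither were Cldn7, Sox17 and Wnt7b (adjusted p = 0.155, 0.564 and 0.644). Of 12 smooth muscle markers 2 fell, 0 rose and 10 did not pass, with a median of −0.24, 9 negative and 3 positive. The positive ones were Myh11 (0.059), Cald1 (0.096) and Des (0.13), and Acta2 was at −0.24 with overlapping groups. The mean level of the list ran from 5.28 to 5.48 on the implantation arrays and from 5.69 to 5.85 on the interimplantation arrays. Only 4 of the 12 genes had a mean above the brightest Bacillus control. Actg2, the actin of visceral muscle (−1.74), and the actin-binding Tagln (−1.26) were those called (limma adjusted p = 0.00621 and 0.00343), but a trended and robust variance took the call of Actg2 away (adjusted p = 0.153). The part of either tissue layer in the Klf9 difference was not tested.

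Of 18 measured markers of stroma and decidua 2 rose, 0 fell and 16 did not pass, with a median of −0.013, 10 negative and 8 positive. The activin antagonist Fst (1.71) and the WNT ligand Wnt4 (0.63) rose (limma adjusted p = 1.34e-04 and 0.00633). Of the 18, 10 had a mean above the brightest Bacillus control, Fst among them and Wnt4 not. The uterine transcription factors Hoxa10, Hoxa11 and Hand2 were above the brightest Bacillus control and did not pass. Hand2 was at 0.58 (SE 0.15, limma adjusted p = 0.0685) with groups that did not overlap. Hoxa10 and Hoxa11 were at −0.17 and −0.22 with overlapping groups. Of the markers of endothelium (15 measured), leukocytes (16) and erythroid cells (6), limma called 0 in either direction. At an unadjusted p under 0.05 there were 1 lower, 1 higher and 1 lower. In these lists 4, 4 and 0 genes had a mean above the brightest Bacillus control. The endothelial markers Vwf (−0.40) and Cdh5 (−0.22) did not pass (limma adjusted p = 0.146 and 0.446), but were called without interimplantation array 1 (−0.50 and −0.38, adjusted p = 0.0420 and 0.0356). The macrophage marker Cd68 was at 0.38, the pan-leukocyte gene Ptprc at 0.24 and Alas2, of haem synthesis in red cells, at −0.35 (limma adjusted p = 0.140, 0.411 and 0.195). Cd68 was called without interimplantation array 3 (0.52, limma adjusted p = 0.0301). It was also called under the control scaling (0.78, limma adjusted p = 0.0155), which raises every difference by the same amount.

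**Figure D5:**
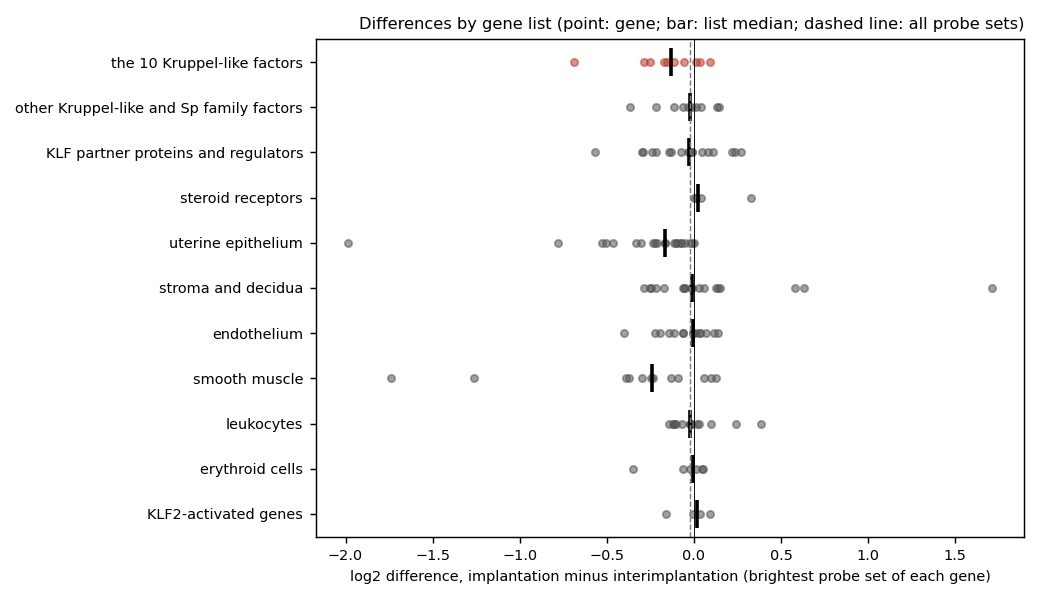
Log2 difference, implantation minus interimplantation, of the 10 Kruppel-like factors (red) and of each list of other genes (grey), every gene by its brightest probe set. Black bars are list medians and the dashed line is the median of all probe sets (−0.02). The 10 factors have a median of −0.13 with Klf9 lowest at −0.69, and the epithelial and smooth muscle lists extend furthest to the left.

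The genes whose signal over the 6 arrays was most like that of Klf9 1428288_at, by Pearson's r among the 3878 probe sets of other genes above the brightest Bacillus control, were Mast3 (r = 0.996), the splicing factor gene Sf3b1 (r = 0.991), the ribosomal protein gene Rps24 (r = 0.982), Zfp358 (r = 0.979) and Gstp1, a glutathione transferase (r = 0.977). The most opposite were Tmem39a (r = −0.999), Bzw2 (r = −0.998), the RNA-binding Hnrnpab (r = −0.997), Fbln1, which encodes a matrix protein (r = −0.997), and the phosphatase Ppm1g (r = −0.997). All points share the same 6 arrays and 2 groups, so any gene that differs cleanly between the sites scores high.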

How the data were processed

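Per the submitters' processing notes, the authors made the deposited values with Partek 6.6 and RMA. The deposited log2 table has 1 value per probe set and array, from 1.74 to 12.4. The log base is not stated. Base 2 was assumed, since RMA usually writes it and the range fits it. The table held 22690 probe sets, of which 64 controls were left out, and no filter on level was set. Symbols came from the platform annotation (20380 probe sets with 1 symbol, 691 with several, 1555 with none).

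Groups were compared with limma 3.58.1 under R 4.3.3 (lmFit and eBayes with 1 term for group, two-sided, Benjamini-Hochberg over 22626 probe sets). In lists, each gene was read by its brightest probe set. The number of arrays (3 a group) limits the precision.

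The members, lists and tests were chosen with earlier results of these data known. Named were every member probe set, every other family gene, in each list the called genes and the 2 with the smallest p, and the 5 genes most like and most opposite to Klf9. A few further markers of stroma and smooth muscle are given beside them. The lists were other Kruppel-like and Sp factors, their partner proteins, KLF2-activated genes, steroid receptors, and markers of epithelium, stroma and decidua, endothelium, smooth muscle, leukocytes and erythroid cells. A few genes stand in more than 1 list. Replicate numbers were tested for pairing: same-numbered arrays' deviations from their group means correlated at −0.090, 0.071 and −0.028, so no block was used. Arrays with unlike numbers correlated at −0.093 to 0.10. Pairing by animal could not be tested, since which array came from which animal is not given. Alternatives were a trended and robust variance, array weights, the replicate number as a block, repeated quantile normalization, scaling to 18 hybridisation control probe sets, leaving out dim or shared probe sets, and leaving out each array.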

Additional observations from a re-analysis of the deposited data

How the results depend on the processing

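Klf9 was chosen with this contrast known, so its calls under the alternatives are a description and not a test. Its sign could not turn under another variance or a block, nor without 1 array, since the groups of 1428288_at did not overlap. The difference of Klf9 1428288_at stayed negative under all 13 alternatives and past the threshold under all but the scaling to the hybridisation controls. Under that scaling the difference was −0.29, and the count of called Kruppel-like factor probe sets was 0 lower and 0 higher. Without 1 array at a time it ran from −0.76 to −0.64, with 1 lower and 0 higher each time. With the replicate number as a block it was −0.69 with an SE of 0.092, and the counts were again 1 and 0; the block changed no call of a named gene. The mean over its 7 probe sets gave −0.20 for the gene. The cause of the change with the control scaling is the shift itself, which raises every difference by 0.40, and the controls' own spread (SE 0.22 in place of 0.09). In that setting the called genes of the fixed lists were 5 higher and 3 lower, in place of 2 and 7. Without shared probe sets 4 were lower, since those of Cd24a, Sox17 and Actg2 were among the ones left out, and without single arrays they numbered 2 to 4 higher and 5 to 10 lower, with 4 higher without interimplantation array 1.

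Signs of small differences of other genes turned with the control scaling for Klf1 (0.33), Klf12 (0.38), Klf17 (0.28), Sp3 (0.029), Sp5 (0.18), Sp6 (0.36), Map2k5 (0.096), Cdh5 (0.17), Alas2 (0.045) and S1pr1 (0.24), and with repeated quantile normalization for Klf12 (0.020). Without single arrays Klf1 ran from −0.16 to 0.030, Klf12 from −0.025 to 0.0045, Klf16 from −0.071 to 0.12, Sp4 from −0.089 to 0.14, Sp6 from −0.085 to 0.014 and Esr1 from −0.0056 to 0.086. Actg2 was not called with a trended and robust variance. Signal over background limits the probe sets of Klf10, Klf4 1417394_at and Klf9 1422264_s_at most.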

Other observations

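The following genes were chosen after their values were seen. Those whose signal over the 6 arrays was most like that of Klf6 1427742_a_at, among probe sets of other genes above the brightest Bacillus control, included the histone demethylase gene Kdm5b (r = 0.989) and the polarity kinase gene Mark2 (r = 0.989). Kdm5b had 6.07, 6.11 and 6.12 on the implantation arrays, against 6.95, 6.21 and 5.84 on the interimplantation arrays. Mark2 had 6.18, 6.28 and 6.15 on the implantation arrays, against 7.18, 6.09 and 5.94 on the interimplantation arrays. Both had their highest value on interimplantation array 1, as Klf6 1427742_a_at did, while Klf6 1433508_at was lowest on it. Without that array the correlations with Klf6 1427742_a_at were 0.93 for Kdm5b and 0.81 for Mark2.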
